A study of Mus musculus with 8 samples.

Results

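The integrated stress response was examined through 10 genes: Atf4, Atf5, Asns, Trib3, Chac1, Ddit3, Ddit4, Sesn2, Cebpb and Aldh18a1. They are the gene of the transcription factor ATF4 and genes tied to it, were chosen by symbol with no measured value in the rule, and were found among 58225 gene names in the 2 deposited tables. All 10 were listed in both tables and all 10 passed the filter on low values in both. PolyA RNA had been sequenced from CD8+ T cells of mouse spleens and lymph nodes in 2 experiments with no library in common. In the first, cells activated in vitro carried either floxed and intact Trim28 (Trim28fl/fl, labelled WT and called control here) or a Trim28 knockout (Trim28-/-). In the second, WT cells were stimulated for 3 days through CD3 and CD28 with antibodies, either with anti-IL-2 as well (blocked) or without it (untreated). Each of the 4 groups had 2 libraries. The Cre driver, the age of the mice and the length of the first activation were not given in the sources used here. Nothing says that the 2 libraries of a group came from separate mice or cultures, so the p-values rest on library-to-library spread that could be purely technical.

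In this response, kinases that sense amino acid shortage, unfolded protein, double-stranded RNA or haem lack phosphorylate the translation factor eIF2. Most translation then slows, while ATF4 is made from its mRNA more efficiently, so the level of Atf4 mRNA is only part of what sets ATF4 protein. ATF4 pairs with C/EBP proteins and turns on genes for amino acid synthesis, amino acid transport and tRNA charging, and later genes that restrain growth or favour cell death. Activated T cells draw on this programme because growth and division raise their demand for amino acids.

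The DNA element bound by ATF4 with a C/EBP partner has the core TGATGNAA. It was searched for on both strands in the RefSeq promoter windows (build GRCm38.p6, from 250 bases before to 50 bases after each gene start), which held 11 windows for the 10 genes. It was found in 3 of the 10 genes, Chac1, Trib3 and Asns, and in 3.97% of all 32851 windows. The 3 sites are shown because these genes did not move alike in the comparisons. Each is 30 bases, read 5′ to 3′ on the gene's strand, with the match in capitals, at chr2:119351038-119351067 (plus strand), chr2:152344028-152344057 (minus strand) and chr6:7693214-7693243 (minus strand).
Chac1: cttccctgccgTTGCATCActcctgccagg
Trib3: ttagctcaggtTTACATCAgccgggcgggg
Asns: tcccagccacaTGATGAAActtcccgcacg
The Chac1 match began 193 bases before the RefSeq start and the Asns match 23 bases before it, while the Trib3 match began at base 15 after it. Against the outermost GENCODE gene ends, from which the gene positions are taken, the sides swap for both: the Asns match began at base 23 of the gene and the Trib3 match 14 bases before it, while the Chac1 match stayed before it, by 180 bases. The cyclic AMP response element TGACGTCA was in none of the 11 windows and in 1.79% of all windows. The STAT motif TTCNNNGAA, a form of the element read by the factors downstream of IL-2, was in 8.30% of all windows and in 1 of the 10 genes, Aldh18a1, at 2 positions that do not overlap (chr19:40588598-40588627 and chr19:40588483-40588512, both minus strand).
Aldh18a1, farther from the start: ttccttacctTTCTGGGAAgctgtctgggg
Aldh18a1, nearer to the start: gtgggcgcgaTTCTCAGAAgcgcctgcgcc
A match is only a run of letters and was not tested for binding.

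Depth was even, at 13222831 to 17069569 recovered reads per library, and the least covered of the 10 genes in any library still held 89 reads. Trim28 stood at a normalised read count of 4262 and 4323 in control and 415 and 458 in knockout libraries, in keeping with the labels. With the antibody Trim28 rose, from 5774 and 5920 in untreated to 7926 and 8528.5 in blocked libraries (log2 fold change 0.49, adjusted p = 1.01e-07 by limma). Il2, the gene of the cytokine itself, fell in the knockout (log2 fold change -0.80) and was not called with the antibody (0.11, adjusted p = 0.0731 by limma). Il2ra, the gene of the high-affinity IL-2 receptor chain, stood at 44645 and 43661 in untreated and 22025 and 21937 in blocked libraries. The CD8 T cell markers were all above 1 CPM in every group, where CPM is a gene's share of a library's reads on a fixed scale. Their summed level was 1927 to 2584 CPM over all libraries, and Cd4 was at most 0.597 CPM in any library. The other marker lists were low and moved: B cell markers summed to 0.594 to 3.05 CPM over all libraries, and myeloid markers fell from 18.5 to 21.8 CPM in control to 10.9 to 11.7 in knockout libraries and from 19.995 to 20.8 in untreated to 5.21 to 5.46 in blocked libraries. Defining markers at 0 in both libraries of a group included Ms4a1 (control, knockout and untreated), Pax5 (knockout), Adgre1 (control and knockout), Csf1r (untreated), Ncr1 (all 4 groups) and Hbb-bs (control and knockout). CD4 T cell markers summed to 37.5 to 39.1 CPM in control, 11.6 to 12.8 in knockout, 29.0 to 32.9 in untreated and 34.2 to 35.8 in blocked libraries. Members of this list did not move alike. Cd40lg fell from 25.7 and 27.2 CPM in control to 3.13 and 3.71 in knockout libraries, and Zbtb7b also fell. Foxp3 rose from 0.302 and 0.378 to 3.28 and 3.71 CPM. With blockade Cd40lg rose, and Foxp3 and Zbtb7b fell. NK cell markers, led by Eomes, summed to 13.1 to 15.5, 18.6 to 20.6, 22.8 to 23.7 and 10.2 to 10.5 CPM in the same order of groups. In the knockout Eomes rose while Klre1 fell, from 2.26 and 1.51 CPM in control to 0.149 and 0.297 in knockout libraries. Erythroid and stromal markers, led by Pecam1, summed to 21.9 to 32.1, 43.3 to 45.7, 31.0 to 32.8 and 65.1 to 68.2 CPM in that order of groups. The part of these other cells in the results was not tested. In bulk samples, fewer cells of a type and less RNA per cell cannot be told apart.

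Of the 10 genes, 6 rose in the knockout (Atf4, Trib3, Chac1, Ddit3, Cebpb and Aldh18a1), 3 fell (Atf5, Asns and Ddit4) and Sesn2 was not called. Among all 15415 genes tested, 32.9% were called higher and 28.2% lower (limma, adjusted p under 0.05 after Benjamini-Hochberg adjustment over all of them). The median log2 fold change of the 10 genes was 0.36, between -0.84 for Atf5 and 1.10 for Chac1, beside a median of 0.03 over all genes tested. With IL-2 blocked, 4 rose (Atf4, Ddit3, Ddit4 and Aldh18a1), 4 fell (Atf5, Asns, Trib3 and Sesn2) and Chac1 and Cebpb were not called. In that experiment 31.4% of 13978 genes tested were called higher and 28.9% lower, and the median of the 10 genes was 0.01 beside 0.02 over all genes tested. Called changes were thus common in both experiments, and the 10 genes did not move as a block in either.

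**Figure D1:**
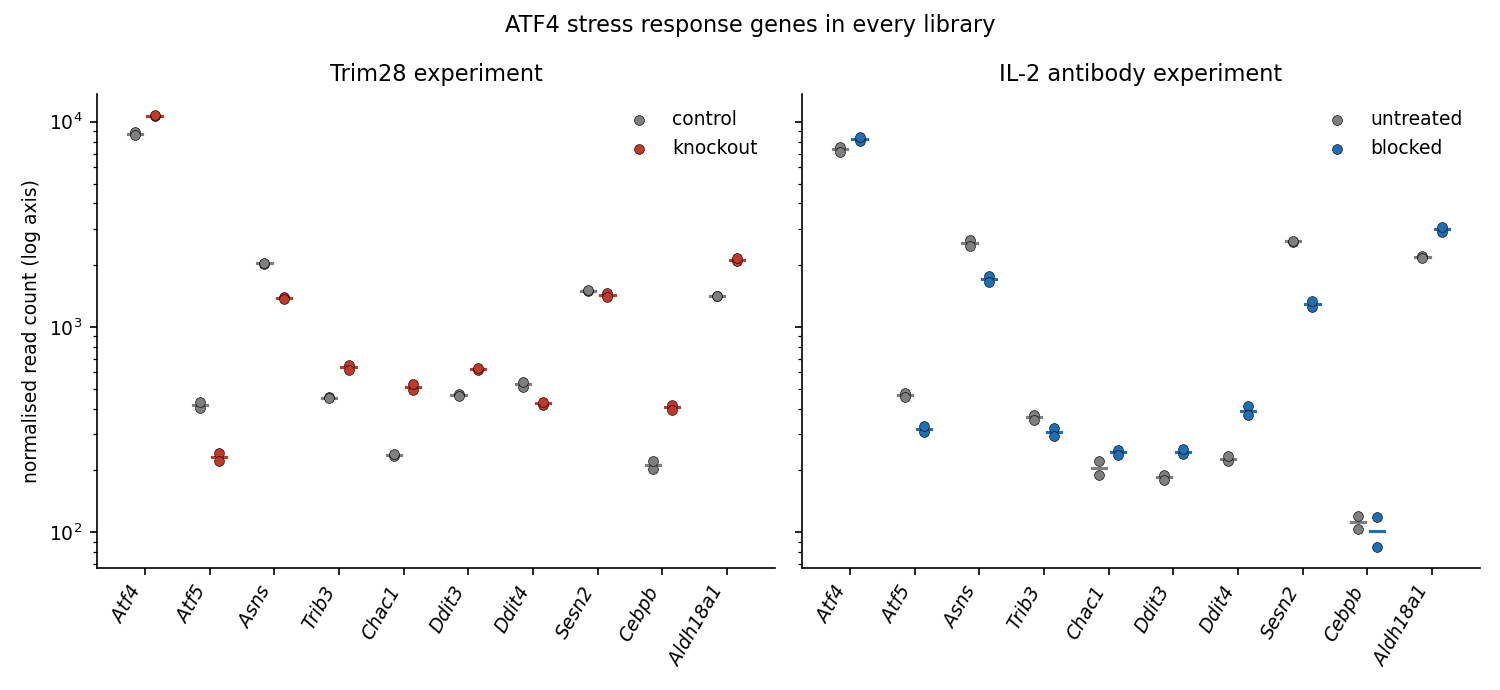
Normalised read count (log axis) of each of the 10 genes in every library, with control and knockout libraries on the left and untreated and blocked libraries on the right. Points are single libraries and bars are means of 2. Chac1 and Cebpb stand well apart between control and knockout, and Sesn2 and Ddit4 between untreated and blocked. For Cebpb the blocked libraries overlap the untreated range.

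Atf4 and its relatives among the bZIP transcription factors, proteins that bind DNA in pairs, come first. Atf4 (chr15:80255184-80257541, plus strand) had a normalised read count of 8886 and 8589 in control and 10651 and 10776 in knockout libraries. The knockout libraries lay above both control libraries, with a 1.23-fold higher mean (log2 fold change 0.29, SE 0.0266, adjusted p = 0.000289 by limma). In the second experiment Atf4 stood at 7522 and 7156 untreated and 8074 and 8409 blocked, again without overlap (log2 fold change 0.17, SE 0.0498, adjusted p = 0.00709 by limma). This smaller rise was not called without a filter (adjusted p = 0.0698), after upper-quartile rescaling (0.0523), or without untreated replicate 1 (0.0905) or 2 (0.268), with adjusted p from 3.88e-06 to 0.268 over the 13 alternatives.

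Atf5 (chr7:44812256-44816658, minus strand) encodes the closest relative of ATF4, which is likewise controlled at translation and acts in mitochondrial stress. Its normalised read counts were 401 and 432 in control against 242 and 222 in knockout libraries, and 479 and 457 in untreated against 306 and 329 in blocked libraries. Both treated groups lay below their references without overlap, so Atf5 fell where Atf4 rose. The fall was 1.79-fold in the knockout (log2 fold change -0.84, SE 0.0715, adjusted p = 0.000231 by limma) and 1.47-fold with the antibody (-0.56, SE 0.0855, adjusted p = 1.47e-05). Nup62, a nuclear pore gene on the other strand, shares 4.11% of the exonic bases of Atf5, and Nup62 rose in both comparisons (0.36 and 0.34).

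Cebpb (chr2:167688915-167690418, plus strand) encodes C/EBP beta, a partner of ATF4 better known for myeloid and inflammatory genes. It stood at 204 and 223 in control and 419 and 395 in knockout libraries, a 1.90-fold rise with no overlap (log2 fold change 0.93, SE 0.0695, adjusted p = 0.000145 by limma). Of the myeloid marker sum, most was Cd68, at 16.5 and 15.5 CPM in control and 9.48 and 9.65 in knockout libraries, and Adgre1 was at 0 in all 4, while the part of myeloid cells in the Cebpb values was not tested. With IL-2 blocked it stood at 104 and 119 untreated and 85.0 and 118 blocked, and the groups overlapped (log2 fold change -0.15, 95% interval -0.50 to 0.19, adjusted p = 0.441). The blocked pair differed by 1.39-fold, the widest gap between 2 libraries of a group for any of the 10 genes, and without blocked replicate A the value was 0.08. Tmem189, on the other strand, shares 20.7% of the exonic bases of Cebpb and rose in both comparisons (0.50 and 0.33), and reads there cannot be told apart if strand was not used in counting.

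Ddit3 (chr10:127290774-127296288, plus strand) encodes CHOP, the bZIP protein linked to cell death after prolonged stress. It rose from 474 and 460.2 in control to 619 and 631 in knockout libraries, and from 190.2 and 179 in untreated to 239.6 and 254 in blocked libraries. The rises were 1.34-fold (log2 fold change 0.42, SE 0.0448, adjusted p = 0.000535 by limma) and 1.33-fold (0.42, SE 0.107, adjusted p = 0.00238), with no overlap in either experiment. With DESeq2 the second was not called (adjusted p = 0.0515, range 0.000238 to 0.0515 over the 13 alternatives). Mars, a methionyl-tRNA synthetase gene on the other strand, shares 3.97% of its exonic bases and rose by 0.78 and 0.80.

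The 3 enzyme genes of amino acid and glutathione metabolism diverged. Asns (chr6:7675169-7693254, minus strand), the asparagine synthetase gene and a textbook target of ATF4, fell from 2035 and 2057 in control to 1393 and 1370.5 in knockout libraries. It fell by a like amount with the antibody, from 2662 and 2476 to 1767 and 1661. The log2 fold changes were -0.57 (SE 0.0314, adjusted p = 5.20e-05 by limma) and -0.58 (SE 0.0577, adjusted p = 5.28e-08), and no treated library reached its reference group.

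Aldh18a1 (chr19:40550257-40588463, minus strand) encodes the enzyme that opens proline and ornithine synthesis from glutamate, and it moved the other way. It stood at 1420.0 and 1421 in control and 2092 and 2164 in knockout libraries, and at 2211 and 2159.7 in untreated and 2918 and 3056 in blocked libraries. Both rises were clear of the spread, at log2 fold changes of 0.58 (SE 0.0334, adjusted p = 5.74e-05 by limma) and 0.45 (SE 0.0530, adjusted p = 5.54e-07).

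Chac1 (chr2:119351229-119354381, plus strand) encodes a glutathione-degrading enzyme and is among the most responsive genes of the ATF4 and CHOP arm. Its normalised read count was 235 and 241 in control and 495 and 529 in knockout libraries. This 2.14-fold rise (log2 fold change 1.10, SE 0.0580, adjusted p = 4.33e-05 by limma) lay above that of 96.6% of all genes tested. With IL-2 blocked the values were 189 and 222 against 252 and 238, which did not overlap but were not called (log2 fold change 0.25, 95% interval 0.02 to 0.49, adjusted p = 0.0548). That value was called with the stricter filter (adjusted p = 0.0411), in the fit of all 8 libraries (0.0264), and without untreated replicate 2 (0.0434) or blocked replicate B (0.0484), with a range of 0.0264 to 0.430 over the 13 alternatives.

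The remaining 3 genes encode brakes on signalling and growth. Trib3 (chr2:152337422-152344032, minus strand) encodes a pseudokinase that binds ATF4 and AKT and damps the response. It rose from 453 and 451 in control to 653 and 619.5 in knockout libraries (log2 fold change 0.49, SE 0.0479, adjusted p = 0.000384 by limma). With the antibody it fell from 372 and 352 to 324 and 293 (log2 fold change -0.23, SE 0.0917, adjusted p = 0.0360 by limma). The fall, 1.17-fold, was not called without a filter (adjusted p = 0.113), with DESeq2 (0.148), without untreated replicate 1 (0.232) or 2 (0.0962), or without blocked replicate B (0.165), and its adjusted p ran from 0.0100 to 0.232 over the 13 alternatives.

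Ddit4 (chr10:59949669-59951834, minus strand) encodes REDD1, an inhibitor of the growth kinase mTORC1 that is also induced by hypoxia and glucocorticoids. Its counts were 511 and 541 in control and 415 and 433 in knockout libraries, a 1.24-fold fall (log2 fold change -0.31, SE 0.0539, adjusted p = 0.00371 by limma) that was not called without knockout replicate 1 (0.0639, with a range of 0.00125 to 0.0639 over 14 alternatives). With IL-2 blocked it rose 1.71-fold, from 222 and 234 to 411 and 371 (log2 fold change 0.77, SE 0.0955, adjusted p = 1.02e-06 by limma). The treated libraries lay below the control group in the first experiment and above the untreated group in the second.

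Sesn2 (chr4:132492032-132510501, minus strand) encodes sestrin 2, a leucine sensor that also holds back mTORC1. In the first experiment it stood at 1496 and 1512 in control and 1461 and 1403 in knockout libraries, a difference that was not called (log2 fold change -0.07, 95% interval -0.16 to 0.02, adjusted p = 0.136). It was called lower after upper-quartile rescaling (-0.15, adjusted p = 0.0143) and with edgeR (-0.10, adjusted p = 0.0497), and its adjusted p ran from 0.0143 to 0.323 over 14 alternatives. With IL-2 blocked it fell 2.02-fold, from 2596 and 2625 to 1247 and 1335 (log2 fold change -1.02, SE 0.0567, adjusted p = 1.25e-11 by limma), the lowest value among the 10 genes in that experiment.

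**Figure D2:**
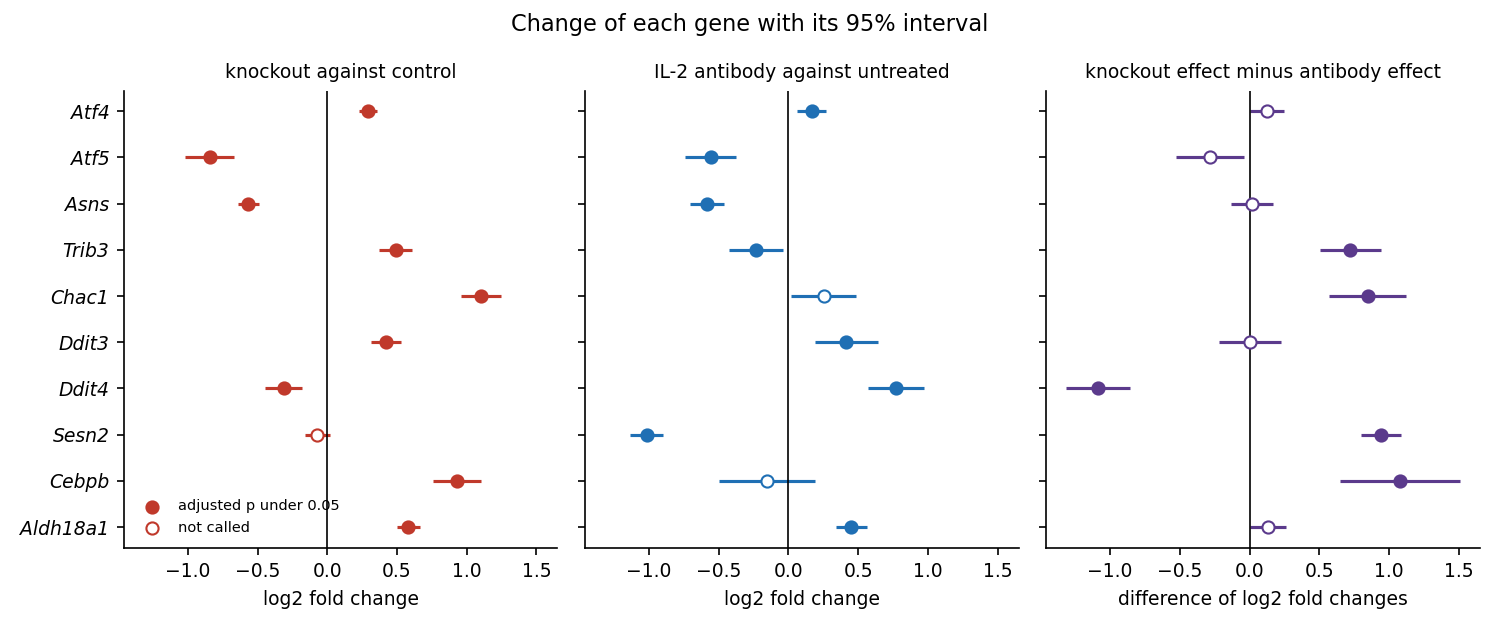
Log2 fold change of each of the 10 genes in the knockout (left), with the IL-2 antibody (middle) and their difference (right), with 95% intervals from limma. Filled points passed an adjusted p of 0.05. Atf5 and Asns lie below 0 and Atf4, Ddit3 and Aldh18a1 above 0 in both experiments, while Trib3 and Ddit4 change sides.

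Read across both experiments, 3 genes rose in each (Atf4, Ddit3 and Aldh18a1) and 2 fell in each (Atf5 and Asns). Trib3 was higher in the knockout and lower with blockade, and Ddit4 the reverse. Over all genes tested, 32.9% were called higher and 28.2% lower in the knockout, and 31.4% and 28.9% with blockade. The share of all genes with each pair of calls was not computed, so these counts cannot be read as a trait of the 10 genes. Whether the 2 effects differed was tested with all 8 libraries in 1 model, as the knockout effect minus the antibody effect. The test covered the 12428 genes that carried the same name in both tables and passed the low-value filter in both. Among these, 24.7% were called higher in the knockout effect and 17.0% lower. Of the 10 genes, 4 were called higher, namely Cebpb (difference of log2 fold changes 1.08, SE 0.198, adjusted p = 0.000838 by limma), Sesn2 (0.95, SE 0.0659, adjusted p = 2.16e-07), Chac1 (0.85, SE 0.128, adjusted p = 0.000204) and Trib3 (0.72, SE 0.101, adjusted p = 0.000104). Ddit4 was called lower, at -1.09 (SE 0.107, adjusted p = 5.17e-06).

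No difference was called for the other 5 genes. The difference was near 0 for Asns (0.02, 95% interval -0.13 to 0.17, adjusted p = 0.858) and Ddit3 (0.00, -0.22 to 0.23, adjusted p = 0.978). For Atf4 the difference was 0.13 (0.01 to 0.25, adjusted p = 0.0855) and for Aldh18a1 0.13 (0.00 to 0.26, adjusted p = 0.0964). Both of these were called without blocked replicate B, at 0.16 (adjusted p = 0.0221) and 0.17 (adjusted p = 0.0300). Atf5 stood at -0.28 (-0.52 to -0.04, adjusted p = 0.0580) and was called under 6 of 15 alternatives. The experiments differed in more than the factor named for each, so these values compare 2 effects and not 2 levels.

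Levels were compared between genes only per length, as reads per kilobase of exon, scaled to a common library total (RPKM). Atf4 was the highest of the 10 in every group, at 276 ± 6.06 RPKM in control, 344 ± 2.66 in knockout, 181 ± 4.96 in untreated and 214 ± 5.21 in blocked libraries (SD, n = 2). Asns was next in both reference groups, at 55.7 ± 0.542 RPKM in control and 54.6 ± 2.36 in untreated libraries, followed by Sesn2 and Aldh18a1. In both treated groups Aldh18a1 took the second place, at 39.6 ± 0.937 RPKM in knockout and 45.0 ± 1.27 in blocked libraries, ahead of Asns (38.3 ± 0.471 and 38.4 ± 1.85). Below these 4, the control order was Ddit4, Ddit3, Trib3, Atf5, Chac1 and Cebpb, in which the ranges of Trib3 and Atf5 and of Chac1 and Cebpb overlapped.

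In knockout libraries the lower order was Ddit3, Chac1, Trib3, Cebpb, Ddit4 and Atf5, so that Atf5 came last at 8.82 ± 0.561 RPKM, and the ranges of Chac1 and Trib3 overlapped. In untreated libraries it was Atf5, Trib3, Ddit4, Chac1, Ddit3 and Cebpb, with Ddit4 and Chac1 overlapping. In blocked libraries Ddit4 led this lower order at 13.7 ± 1.05 RPKM, the neighbours among Atf5, Chac1, Trib3 and Ddit3 overlapped, and Cebpb was last at 4.13 ± 0.933. The 2 tables were normalised separately and per-length levels are not tested across them.

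**Figure D3:**
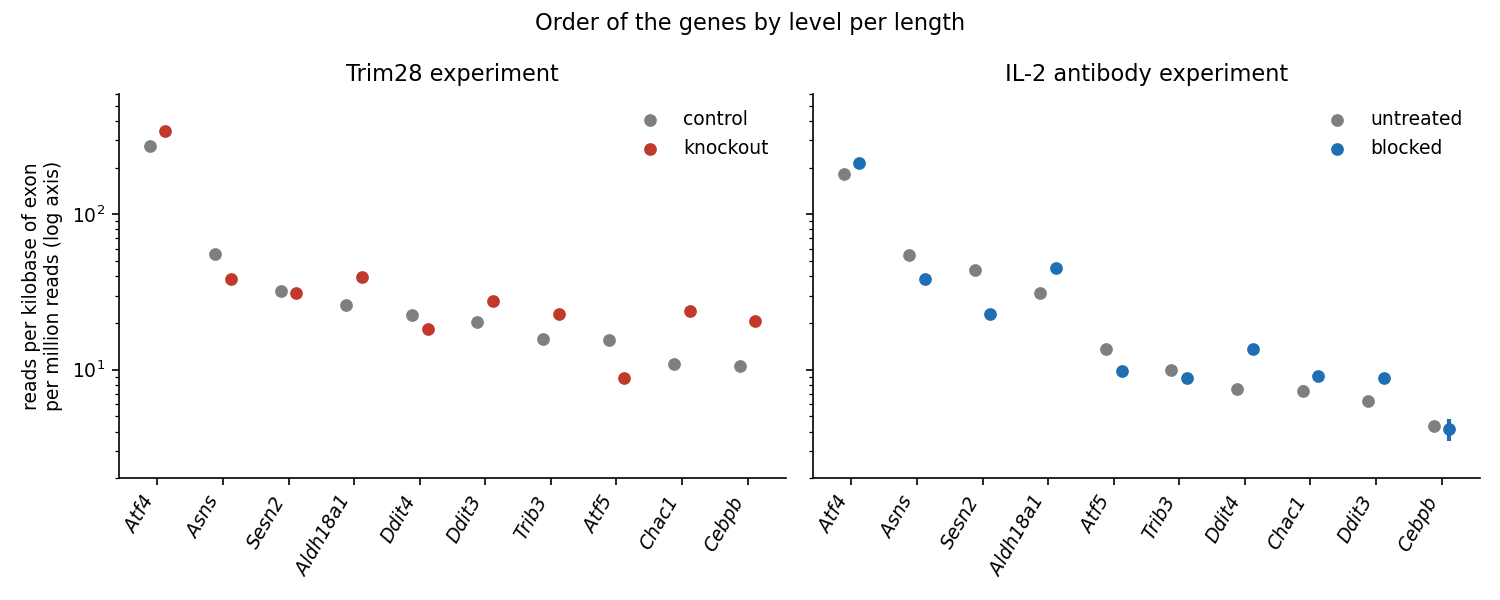
Level per length (RPKM, log axis) of the 10 genes, ordered by the reference group of each experiment. Points are means and vertical lines the range of 2 libraries, mostly narrower than the points. Atf4 lies above the others in all 4 groups, and the mean of Cebpb is lowest in control, untreated and blocked libraries but not in knockout libraries, where Atf5 is lowest.

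Upstream of ATF4, the genes of eIF2, its kinases, its exchange factor and its phosphatase moved in both directions. In the knockout 5 of 14 tested rose and 7 fell (median log2 fold change -0.05), and with the antibody 5 rose and 4 fell (median 0.03). Of all genes tested, 32.9% were called higher and 28.2% lower in the knockout, and 31.4% and 28.9% with the antibody. Eif2ak2, which encodes PKR, a sensor of double-stranded RNA, fell in both, from a mean of 330 to 144 in the knockout (log2 fold change -1.19, SE 0.0743) and from 623 to 282 with blockade (-1.14, SE 0.0853). Eif2ak3, the gene of the endoplasmic reticulum sensor PERK, fell from 523 to 323 in the knockout (-0.69, SE 0.0519) and rose from 267 to 436 with blockade (0.70, SE 0.0894). Its difference between the effects was called (-1.40, SE 0.100, adjusted p = 2.86e-07 by limma), and that of Eif2ak2 was not (-0.05, 95% interval -0.31 to 0.21, adjusted p = 0.776). Of the 5 genes for subunits of the exchange factor eIF2B, Eif2b4 (0.75, the highest of the list), Eif2b3 (0.56), Eif2b5 (0.42) and Eif2b1 (0.14) rose in the knockout, and Eif2b2 stood at 0.12 (adjusted p = 0.0639 by limma). With blockade Eif2b4 (0.25), Eif2b1 (0.20) and Eif2b3 (0.20) rose, Eif2b2 fell (-0.24) and Eif2b5 stood at 0.04 (adjusted p = 0.540 by limma). The phosphatase subunit gene Ppp1r15a, through which the response ends itself, fell in both (-0.20 and -0.47), as did Ppp1r15b (-0.28 and -0.21).

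Among genes of other stress transcription factors, partners of ATF4 included, 1 of 8 tested rose and 4 fell in the knockout, and 1 rose and 3 fell with blockade. Over all genes tested the shares called higher were 32.9% and 31.4%, and the shares called lower were 28.2% and 28.9%. Atf3, a stress factor gene induced by ATF4, fell from 2533 to 1360 in the knockout (log2 fold change -0.90, SE 0.0389) and from 1725 to 336 with blockade (-2.36, SE 0.0668). Nupr1, a small stress-induced regulator gene, had the lowest value of the list in both, going from 74.0 to 9.33 and from 55.9 to 6.22 (-2.84 and -2.98). Its knockout and blocked libraries lay under the filter value of 10, so Nupr1 passed the filter only through the reference libraries. Nfil3, a bZIP repressor gene, also fell (-1.05 and -1.19), whereas Nfe2l2, the gene of the oxidative stress factor NRF2, fell in the knockout (-0.46) and rose with blockade (0.53). Cebpd, a C/EBP family gene, rose in the knockout (0.70) and stood at 0.57 with blockade (adjusted p = 0.0546 by limma). Among paralogues of the 10 genes, 1 of 5 tested rose and 2 fell in the knockout and 1 rose and 3 fell with blockade. The pseudokinase genes Trib2 (-1.54 and -2.40) and Trib1 (-0.83 and -1.40) fell in both, while the sestrin gene Sesn1 rose in both (0.28 and 0.52). Sesn3 fell with blockade (-0.43) and stood at -0.08 in the knockout, and Chac2 was called in neither (0.23 and 0.09).

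Of the other reported targets of ATF4, 20 of 37 tested rose and 11 fell in the knockout (median log2 fold change 0.21), and 16 of 38 rose and 13 fell with blockade (median 0.07). Cth, a cysteine synthesis gene, fell from 1241 to 354 in the knockout (-1.81, SE 0.0425) and from 1074 to 610.5 with blockade (-0.82, SE 0.0678). Herpud1, which acts in endoplasmic reticulum protein disposal, rose by 0.83 and 0.34, and the autophagy receptor gene Sqstm1 fell (-0.65 and -0.89). Ero1l, an oxidase gene of the endoplasmic reticulum, also fell (-0.79 and -0.39), as did the death genes Pmaip1 (-1.03 and -0.25) and Bcl2l11 (-0.85 and -0.72). The lowest value was that of the lipoprotein receptor gene Vldlr in both (-1.87 and -1.94), and with blockade the highest was that of another death gene, Bbc3 (1.10). Grouped by function after their values were seen, 8 of 10 aminoacyl-tRNA synthetase genes rose in the knockout and 6 with blockade, and no fall was called by limma in either, where the lowest values were 0.04 and -0.0039. Over all genes tested, 32.9% and 31.4% were called higher and 28.2% and 28.9% lower. A grouping made after the values were seen is no evidence about the group. In the same way 5 of 6 serine and one-carbon enzyme genes rose in each, among them Phgdh (0.35 and 0.78) and Psat1 (0.26 and 0.59), while Aldh1l2 fell in each (-1.20 and -0.91). In the knockout Aldh1l2 passed the filter only through the control libraries, since the mean in knockout libraries was 9.83. Of 6 amino acid transporter genes, 4 rose and 1 fell in the knockout, and 2 rose and 1 fell with blockade. Of 3 apoptosis genes, none was called higher by limma and 2 fell in the knockout, where Bbc3 stood at -0.10, and 1 rose and 2 fell with blockade.

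Proline enzymes, which act beside Aldh18a1, had 3 of 6 higher and 1 lower in the knockout and 4 higher and 1 lower with blockade. The shares over all genes tested were 32.9% higher and 28.2% lower in the knockout, and 31.4% and 28.9% with blockade. Pycrl, the gene of an enzyme that completes proline synthesis, rose in both (0.71 and 0.53). Prodh, which breaks proline down, rose 4.28-fold from 11.7 to 51.1 in the knockout (SE of the log2 fold change 0.293) and with blockade from 57.4 to 111 (0.94, SE 0.167). The control mean of Prodh was close to the filter value of 10 and had an SD of 5.02 (n = 2), so the 4.28-fold rise rests on a low reference. Pycr1 stood at -0.63 in the knockout, not called (adjusted p = 0.171 by limma), and fell with blockade (-0.71). Oat, the ornithine aminotransferase gene, fell in the knockout (-0.16) and rose with blockade (0.66).

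Endoplasmic reticulum chaperones and targets of ATF6 or XBP1, the other arms of the unfolded protein response, had 10 of 16 higher and 4 lower in the knockout. With blockade 8 were higher and 6 lower. Among all genes tested, 32.9% were called higher and 28.2% lower in the knockout, and 31.4% and 28.9% with blockade. Hspa5, the gene of the main chaperone BiP, fell in both (-0.38 and -0.33), as did the sensor gene Atf6 (-0.52 and -0.64). Pdia4, a disulphide isomerase gene, rose in both (0.77 and 0.71), and so did the chaperone gene Hyou1 (0.52 and 0.31). Sdf2l1, a co-chaperone gene, had the highest value with blockade (0.90), and Xbp1 fell there (-0.58) but rose in the knockout (0.14). Dnajb9, a co-chaperone gene driven by XBP1, had the lowest value there (-0.77) and fell in the knockout as well (-0.41).

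Around the mTORC1 brakes encoded by Ddit4 and Sesn2, 8 of 13 listed genes rose and 3 fell in the knockout and 5 rose and 3 fell with blockade. For this list and the next, the shares of all genes tested were 32.9% higher and 28.2% lower in the knockout. With blockade they were 31.4% and 28.9%. Castor2, a paralogue of the arginine sensor gene Castor1, is named Gatsl2 in the first table. It rose from 208 to 800.3 in the knockout (1.94, SE 0.0488) and fell from 351 to 166.5 with blockade (-1.07, SE 0.102). Rragd, a gene of a lysosomal GTPase that activates mTORC1, fell in the knockout (-0.43) and from 536 to 74.1 with blockade (-2.84, SE 0.112). Castor1, named Gatsl3 in the first table, fell in both (-0.60 and -0.97), and Tsc2 (0.51 and 0.32), Nprl3 (0.60 and 0.49), Depdc5 (0.52 and 0.56) and Mtor (0.25 and 0.50) rose in both. A list of mitochondrial proteases and chaperones with OMA1 and DELE1, which pass mitochondrial stress on to an eIF2 kinase, had 5 of 7 higher and 1 lower in the knockout and 6 higher with blockade, where the remaining gene, Hspe1, stood at -0.0053. They included the protease genes Clpp (1.09 and 0.81), Oma1 (1.09 and 0.84) and Lonp1 (0.54 and 0.21), the relay gene Dele1 (0.63 and 0.31) and the chaperone gene Hspd1 (0.27 and 0.71). Hspa9 rose with blockade (0.23) and stood at 0.07 in the knockout. The medians of the mitochondrial list were 0.54 and 0.31, beside 0.03 and 0.02 over all genes tested.

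**Figure D4:**
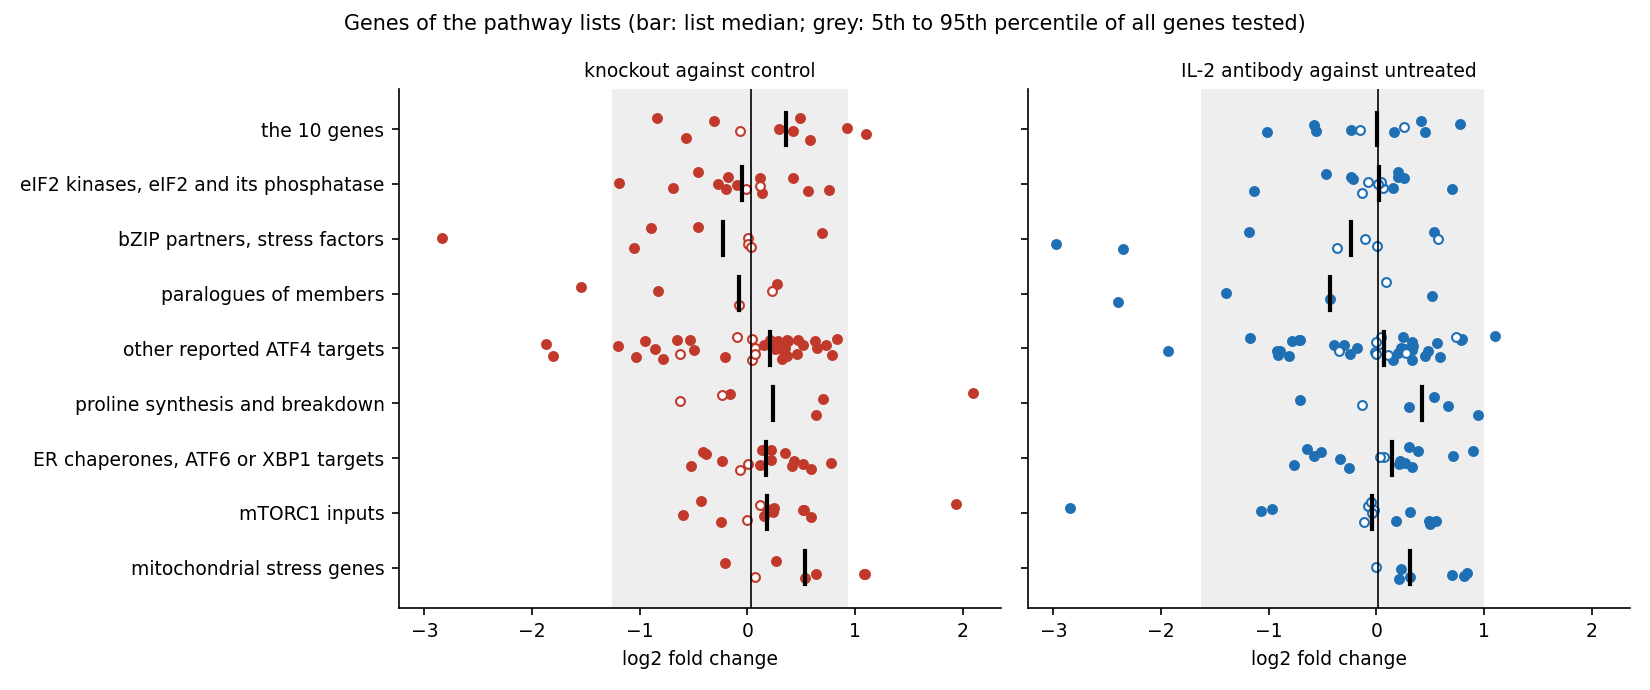
Log2 fold change of the 10 genes and of every tested gene of the 8 pathway lists, in the knockout (left) and with the IL-2 antibody (right). Filled points were called, black bars are list medians and the grey band runs from the 5th to the 95th percentile of all genes tested, -1.25 to 0.92 and -1.62 to 0.99. Most genes of each list lie inside the band, and Nupr1 lies farthest to the left in both panels, at -2.84 and -2.98. Nupr1 passed the filter on low values only through the reference libraries.

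By their pair of log2 fold changes, the 5 genes nearest to Atf4 among 7971 genes of at least 10 CPM in both experiments were Txn2, Fkbp2, Dlgap5, Rbm8a and Sun2. Their straight-line distances from Atf4 were 0.00662 to 0.0103 log2 units. Txn2, the closest, stood at 0.30 in the knockout and 0.17 with blockade, and likeness over 2 contrasts places many genes side by side.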

How the data were processed

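The values the authors deposited are a normalised signal per gene and library, read counts divided by 1 factor per library, as the values themselves and the DESeq2 column names of the file headers show. Per the submitters' processing notes the build was mm10, with HISAT2 2.2.1, DESeq2, StringTie 2.1.4 and Trim Galore 0.4.4 named as tools, and the read counter, the annotation and the use of strand are not given in the sources used here. Dividing each library by its value of 1 read gave whole reads for 100% of values within 0.001. A gene entered a test when 2 or more libraries had a value of 10 or higher. The scale was log2(value + 1), which understates changes of weakly expressed genes. The tool was limma 3.58.1 in R 4.3.3, with the prior variance following mean expression, Benjamini-Hochberg adjustment over all genes tested and calls below an adjusted p of 0.05. The knockout and antibody effects came from separate fits, and their difference from a joint one. Alternatives were edgeR 4.0.16 (quasi-likelihood, TMM) and DESeq2 1.42.0 on recovered reads, other pseudocounts, filters and scalings, a replicate block, and leaving out each library. The antibody columns carry no replicate number and are called A and B.

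Positions and exon lengths are from GENCODE M21 on GRCm38, and promoter sequences from RefSeq (GRCm38.p6). The tables use different symbol versions, so listed genes were matched in each table through older symbols. The 10 genes and the lists were chosen with earlier results of these data known. All 10 genes were named, with up to 4 genes per list and comparison by smallest adjusted p, list extremes, the label checks Trim28, Il2 and Il2ra, and the 5 genes nearest to Atf4. Other genes named were chosen after their values were seen. These are the genes overlapping the 10, Psat1, Aldh1l2, Eif2b1, Eif2b2 and the single marker genes named from the marker lists. A few listed genes are not reported here by name.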

Additional observations from a re-analysis of the deposited data

How the results depend on the processing

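Direction and side of the threshold were unchanged for 382 of 420 values of the 10 genes under an alternative. DESeq2 called 2846 genes higher and 2660 lower in the knockout, against 5065 and 4344 by limma, and edgeR on recovered reads called 4548 and 4571. Upper-quartile rescaling turned the balance of calls, to 4199 higher and 5227 lower in the knockout and 3822 and 4498 with blockade, where limma as reported had 4391 and 4033. Leaving out 1 library gave 3212 to 4103 higher and 2787 to 3193 lower there; the lowest values, without knockout replicate 1, and 3234 and 2824 without knockout replicate 2, rest on fewer samples. The number of the 10 genes called lower in the difference of effects was 2 in place of 1 with the stricter filter (50 in 2 libraries), TMM or upper-quartile rescaling and edgeR, the second being Atf5, and 1 to 2 when a library was left out. Values near 0 changed sign: the difference for Asns was -0.0048, -0.0076 and -0.00031 and that for Ddit3 -0.018, -0.021 and -0.015 with TMM, upper-quartile rescaling and edgeR, and leaving out a library gave -0.035 to 0.070 and -0.039 to 0.047. Cebpb with blockade ran from -0.39 to 0.081 when a library was left out. The cause was not tested. With 2 libraries per group a left-out fit assumes that the lone library varies like the others.

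The labels tie control and knockout libraries only by a number. Deviations of same-numbered libraries correlated at 0.0127 over 15415 genes, which with 2 libraries per group cannot tell whether they were paired. With a replicate block 9 of the 10 genes were called in the knockout, with 4881 genes higher and 4197 lower. No paired fit was made with the antibody, where columns carry no number.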
